A study of Mus musculus with 2 samples.

Results

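The genes described here are 10 mouse genes of iron handling and metal binding: the importer receptor Tfrc, the endosomal iron transporters Slc11a1 and Slc11a2, the reductase Steap3, the ferritin subunits Fth1 and Ftl1, the iron sensor Ireb2, the exporter Slc40a1 and the metallothioneins Mt1 and Mt2. They are 10 of the 22911 genes that could be named on the array. They were chosen by their symbols with results of these arrays already known, and every non-control probe annotated to them was kept, so the ratios below are a description of how these genes were measured and no test of them. The 10 genes carried 16 probes, and all 16 were well above background on both arrays, meaning that the scanner software found their signal significantly brighter than the local background.

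The measurements came from 2 one-colour arrays, 1 for each condition, of lineage- Kit+ Sca-1+ (LKS+) cells, a bone marrow population enriched for hematopoietic stem and progenitor cells. LKS+ cells from wild-type mice were kept in culture with the cytokines SCF, IL-6 and IL-3 and were then exposed for 24 h to 150 µg/ml of extracellular vesicles (EVs), the small membrane-bound particles that cells release, isolated from mouse spleen. In the CML EV condition the EVs came from mice with a chronic myelogenous leukemia (CML)-like disease. In the control EV condition they came from normal mice. The leukemic mice were made by transplanting LKS+ cells that carried BCR-ABL and GFP on a retrovirus, together with normal bone marrow cells, into sublethally irradiated mice. Per the methods, these mice were then irradiated after the leukemia had been transplanted and before the spleens were taken, and no irradiation is stated for the normal donors. The effect of leukemia in the EV donor cannot be told apart from that of this irradiation. The recipient cells on both arrays were wild type, and no condition without EVs was analysed here.

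With 1 array for each condition there is no replicate check, so no difference below was tested and no p-value is given. The errors that can be given are technical. The scanner software's error model gives an error for each signal, written below as ± after the signal, which for brighter probes came to 0.20 on a log2 ratio. A set of 263 probes printed in 10 spots each, with a log2 signal of 8 or more, had a median SD between spots of 0.034 on the log2 scale, and the 8 dimmer probes of this kind had 0.15. Neither error contains the variation between cultures or EV preparations. Both arrays were on the same slide and in the same scan. Of 59305 non-control spots, 53.3% were well above background with CML EVs and 54.4% with control EVs, and none was saturated.

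Iron reaches most cells bound to transferrin, which is taken up by the transferrin receptor, and after release and reduction in the endosome the iron enters the cytosol through divalent metal transporters. Iron that is not used at once is stored in the ferritin shell or leaves the cell through ferroportin, the product of Slc40a1 and the only iron exporter known in mammals. Iron regulatory proteins such as the product of Ireb2 bind the messages of the receptor, the ferritins and ferroportin and adjust their stability and translation, so transcript levels of these genes give only a part of their control. Metallothioneins are small cysteine-rich proteins that bind zinc and copper, and their genes respond to metals through the factor MTF1, which binds metal response elements in their promoters, as well as to glucocorticoids and oxidative stress.

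Because the metallothionein genes were higher with CML EVs and their promoters are known for metal response elements, the start-site windows of both genes are shown. Each is 300 bases from RefSeq on GRCm38.p6, with 250 bases before and 50 bases after the annotated start. The Mt1 window is chr8:94178839-94179138 and the Mt2 window chr8:94172368-94172667, both on the plus strand. Capitals mark each match to the metal response element letters TGCACNC or TGCGCNC, read on both strands.
Mt1: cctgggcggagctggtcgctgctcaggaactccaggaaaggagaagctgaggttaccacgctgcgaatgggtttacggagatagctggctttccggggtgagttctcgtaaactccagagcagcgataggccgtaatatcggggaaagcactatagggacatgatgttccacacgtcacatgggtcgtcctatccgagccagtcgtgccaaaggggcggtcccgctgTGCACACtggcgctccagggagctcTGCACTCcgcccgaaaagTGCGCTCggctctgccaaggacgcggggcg
Mt2: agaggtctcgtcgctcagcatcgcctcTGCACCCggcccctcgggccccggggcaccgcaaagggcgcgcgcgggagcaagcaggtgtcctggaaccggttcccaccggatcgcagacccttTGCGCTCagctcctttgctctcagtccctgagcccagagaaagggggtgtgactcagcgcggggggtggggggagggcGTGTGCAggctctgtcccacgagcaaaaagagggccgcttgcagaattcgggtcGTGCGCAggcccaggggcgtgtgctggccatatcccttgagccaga

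The Mt1 window held 3 matches, at window bases 228 to 234, 253 to 259 and 271 to 277, all on the plus strand. The last 2 of them lay downstream of the annotated start that set the window. Whether transcription of Mt1 in these cells began at that start was not tested, and bases outside the window were not searched. The Mt2 window held 4 matches, at bases 28 to 34 and 123 to 129 on the plus strand and at bases 201 to 207 and 255 to 261 on the minus strand. The match at bases 255 to 261 lay downstream of the annotated start of Mt2, and use of that start was not tested either. Of all 32851 windows of this length in the table, 25.7% held at least 1 match, 1.97% at least 3 and 0.517% at least 4. Because both genes were shown for their known metal response elements, these shares are a description and no test. The Mt2 window also held 1 match to the antioxidant response element core TGACNNNGC, at bases 172 to 180, which 12.4% of all windows held at least 1 time, and the Mt1 window had none. Windows were found for 8 of the 10 genes, 13 windows in all. Outside the metallothioneins, 1 of the 2 windows of Tfrc held 2 overlapping matches to the metal response element letters. Slc40a1 and Slc11a2 had no window in the table. A match describes letters in these windows and was not tested as a bound site.

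Slc40a1, the iron exporter ferroportin, had the largest ratio of the 10 genes. Its probe gave a scaled signal of 481 ± 48.2 in LKS+ cells with CML EVs and of 299 ± 30.0 in LKS+ cells with control EVs, a log2 ratio of 0.68 or 1.61-fold. That difference was more than 2 times the scanner error of 0.20 and many times the spread between repeated spots. Among the 13411 genes that were well above background on both arrays, 1.13% had a log2 ratio at least as high. Dim genes scatter more, so the same share was taken among the 3213 genes whose mean signal lay within 1 log2 unit of Slc40a1, where it was 0.778%. Slc40a1 was measured by 1 probe, so no second probe bears on its value.

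The metallothioneins were the other members that stood above the rest. The brighter probe of Mt1 gave 14529 ± 1453 with CML EVs and 10491 ± 1049 with control EVs, a log2 ratio of 0.47 or 1.38-fold. Mt2 gave 1281 ± 128 with CML EVs and 905 ± 90.5 with control EVs, a log2 ratio of 0.50 or 1.42-fold. Both genes were thus higher with CML EVs by similar ratios, and both ratios were more than 2 times the scanner error. Over all genes, 2.49% had a ratio at least as high as that of Mt1 and 2.18% as that of Mt2. Among genes of similar signal these shares were 1.64% of 1223 genes for Mt1 and 0.903% of 3656 genes for Mt2. The remaining probe of Mt1, annotated to a predicted transcript model, was dim, with 27.4 ± 4.06 with CML EVs and 24.1 ± 3.77 with control EVs. Its log2 ratio of 0.19 had the same direction but lay within its scanner error of 0.31.

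The transferrin receptor Tfrc, which brings in transferrin-bound iron, showed no direction shared by its probes. One probe gave 3694 ± 369 with CML EVs and 3556 ± 356 with control EVs, a log2 ratio of 0.06. The other, annotated to the same transcript, gave 1001 ± 100 with CML EVs and 1190 ± 119 with control EVs, a log2 ratio of -0.25. The probes differed by 0.30 on the log2 scale, and 11.5% of the 3847 genes with 2 measured probes differed by at least as much. The direction of Tfrc was therefore not settled by its probes.

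Slc11a1, the divalent metal transporter of phagocyte endosomes and lysosomes, gave 730 ± 73.1 with CML EVs and 687 ± 68.7 with control EVs, a log2 ratio of 0.09. Slc11a2, known as DMT1, which carries iron out of the transferrin endosome, had 4 probes. The brightest gave 373 with CML EVs and 332 with control EVs, a log2 ratio of 0.17, and the next gave 221 with CML EVs and 214 with control EVs, a ratio of 0.04. The dimmer pair ran the other way, with 46.0 with CML EVs and 47.9 with control EVs (a ratio of -0.06) and with 38.9 with CML EVs and 45.5 with control EVs (a ratio of -0.22), and the last of these was annotated to another transcript of the gene than the remaining 3. The Slc11a2 probes spanned 0.39 on the log2 scale, wider than the median range of 0.12 over 4913 genes with several measured probes and below their 95th percentile of 0.51. Steap3, the main ferric reductase of the transferrin endosome in erythroid precursors, gave 285 ± 28.7 with CML EVs and 287 ± 28.8 with control EVs, a log2 ratio of -0.01. No member of the import route other than the dimmer Tfrc probe had a ratio beyond its own scanner error.

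The ferritin subunits were among the brightest genes on the arrays and were close to level. Fth1, the heavy subunit that oxidizes iron for storage, gave 99801 ± 9980 with CML EVs and 106877 ± 10688 with control EVs, a log2 ratio of -0.10. Ftl1, the light subunit, gave 106867 ± 10687 with CML EVs and 110054 ± 11005 with control EVs at its brighter probe, a log2 ratio of -0.04. Its dimmer probe gave 12565 ± 1256 with CML EVs and 12516 ± 1252 with control EVs, a ratio of 0.01. The brightest genes as a class lay slightly below 0: the median log2 ratio was -0.03 both among the 179 genes within 1 log2 unit of Fth1 and among the 167 genes within 1 log2 unit of Ftl1. Ferritin genes have many processed pseudogenes, and a probe may also bind messages of such copies, so these values hold for the probe rather than for 1 locus. Ireb2, the iron regulatory protein IRP2 that is degraded when iron is plentiful, gave 1024 ± 102 with CML EVs and 1007 ± 101 with control EVs, a log2 ratio of 0.02.

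**Figure D1:**
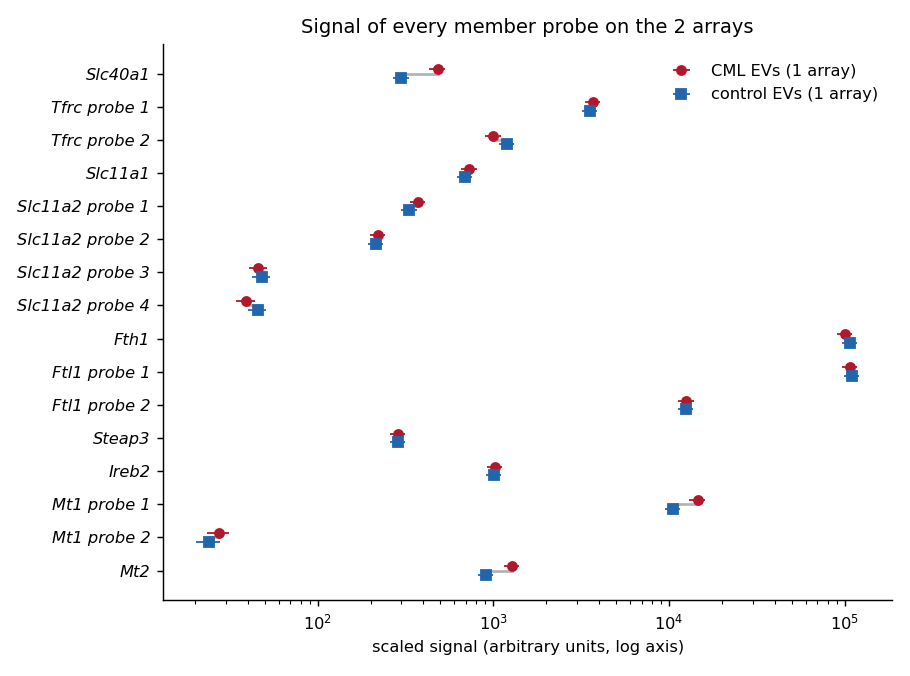
Scaled signal of the 16 member probes (log axis, arbitrary units) in LKS+ cells with CML EVs (red circles) and control EVs (blue squares), 1 array each, with the scanner error as horizontal bars; levels of different probes cannot be compared with each other. The red point lies clearly to the right of the blue point for Slc40a1 (481 with CML EVs, 299 with control EVs), the brighter Mt1 probe (14529 with CML EVs, 10491 with control EVs) and Mt2 (1281 with CML EVs, 905 with control EVs), and the points lie close together elsewhere.

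The plot of signals shows all 16 probes side by side, and the plot of ratios gives the same probes as log2 ratios against the spread of all genes. For each gene the probe brightest with CML EVs was taken, which in each member was also the brightest with control EVs. On that basis 7 members were higher and 3 lower with CML EVs, while 51.9% of all 13411 genes were higher. The median log2 ratio of the members was 0.07, against 0.0065 over all genes. The middle 95% of all genes ran from -0.44 to 0.47, and Slc40a1, Mt1 and Mt2 lay above it. The ratios of the other 7 members ran from -0.10 to 0.17 with a median of 0.02 and all lay within the scanner error, and those of Steap3 and Ireb2 were also smaller than the spread between repeated spots.

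**Figure D2:**
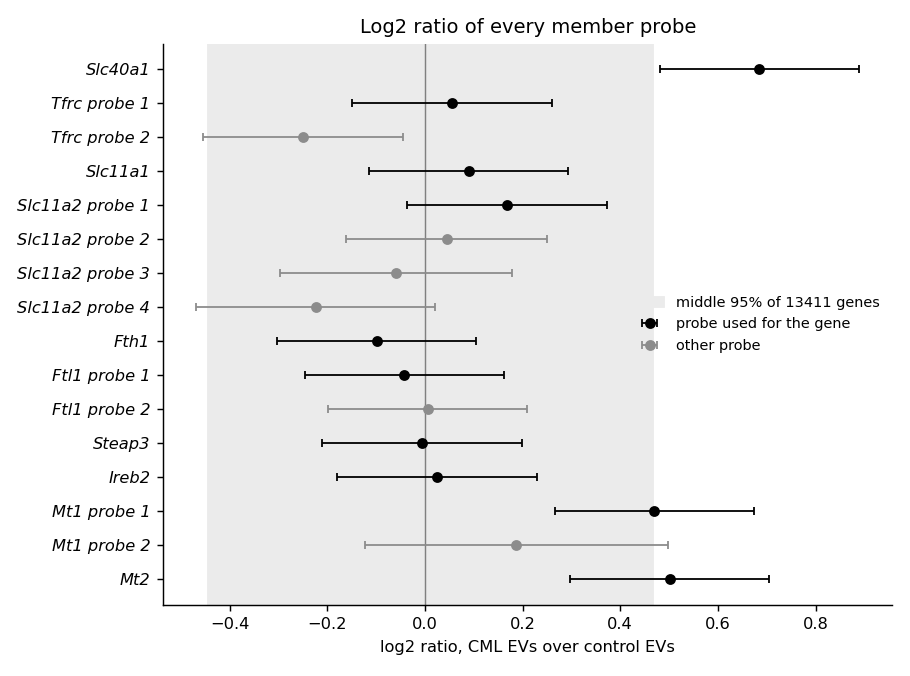
Log2 scale ratio, CML EVs over control EVs, for the 16 member probes, with bars of 1 scanner error; black points are the probes used for the gene, grey points its other probes, and the shaded band is the middle 95% of 13411 genes, from -0.44 to 0.47. Slc40a1 at 0.68 and Mt2 at 0.50 lie right of the band and the brighter Mt1 probe at its edge, at 0.47, while the other probes lie inside it.

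At the lowest limit used, a signal at least 25% higher or, the same fold downward, 20% lower with CML EVs, 3 of the 10 members were higher and 0 lower, against 5.01% of all genes higher and 5.25% lower. At 1.5-fold, 1 member, Slc40a1, was higher and 0 lower, against 1.52% of all genes higher and 1.18% lower. At 2-fold, 0 members were higher or lower, against 0.395% of all genes higher and 0.224% lower. The members were chosen with these ratios known, so nothing is read from how their share stands against that of all genes. The plot of ratio against signal places the members among all genes, from Steap3 at the dim end to the ferritins at the bright end.

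**Figure D3:**
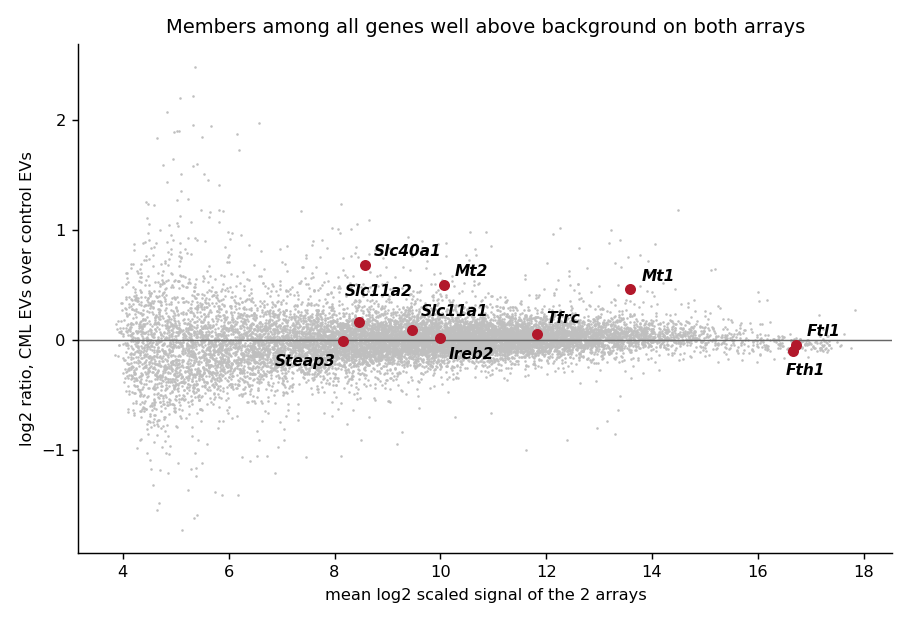
Log2 scale ratio, CML EVs over control EVs, (vertical axis) against the mean log2 scaled signal of both arrays (horizontal axis) for 13411 genes well above background on both arrays (grey) and the 10 members (red). The scatter is wider among dim genes, and Slc40a1 at 0.68, Mt2 at 0.50 and Mt1 at 0.47 stand above most genes of similar signal, while Fth1 at -0.10 and Ftl1 at -0.04 lie at the bright end.

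The closest relatives of the members were measured beside them. Of the other metallothioneins, Mt3, known from brain, gave 326 with CML EVs and 334 with control EVs, a log2 ratio of -0.04, and Mt4, known from stratified epithelium, gave 99.3 with CML EVs and 93.1 with control EVs, a ratio of 0.09. Both ratios were smaller in size than those of Mt1 and Mt2. Tfr2, the second transferrin receptor and an iron sensor, gave 1741 with CML EVs and 1928 with control EVs, a ratio of -0.15. Aco1, the cytosolic aconitase that doubles as iron regulatory protein IRP1, gave 1723 with CML EVs and 1605 with control EVs, a ratio of 0.10, while a dim probe of it gave 31.5 with CML EVs and 53.0 with control EVs, a ratio of -0.75. Steap1, Steap2 and Steap4, relatives of Steap3, were not well above background on either array. Ftmt, the mitochondrial ferritin, gave 2.82 with CML EVs, which was not well above background, and 31.9 with control EVs, at a single dim probe. With its CML EV side set to 13.6, the lowest signal well above background on that array, Ftmt was 2.34-fold lower with CML EVs. That value is no strict bound, since some brighter probes, as that of Marco at 14.2, were not well above background with CML EVs.

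Other genes of iron and metal metabolism were taken from a list of 70 genes, and 58 of them passed the background limit on both arrays at the probe brightest with CML EVs. With CML EVs, 38 of the 58 were higher and 20 lower, with a median log2 ratio of 0.05, while 51.9% of all genes were higher. At the 25% limit, 3 were higher (5.17%) and 1 lower (1.72%), against the 5.01% and 5.25% of all genes given above. The higher genes were Lcn2, Smad6 and Hfe, and the lower gene was Cp. With the probe brightest with control EVs in place, Heph also counted as measured, at a log2 ratio of -2.28, which made 2 lower genes of 59.

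In the group for uptake and reduction, 8 of 13 genes were measured, 5 higher and 3 lower. Lcn2, which encodes lipocalin 2, a neutrophil granule protein that binds iron-loaded siderophores, gave 15660 with CML EVs and 9251 with control EVs, a log2 ratio of 0.76. Hfe, a regulator of hepcidin that binds the transferrin receptor, gave 444 with CML EVs and 344 with control EVs, a ratio of 0.37. In the group for export and systemic control, 5 of 10 genes were measured, 2 higher and 3 lower. Smad6, an inhibitor of BMP signalling, gave 62.4 with CML EVs and 47.9 with control EVs, a ratio of 0.38, and Cp, the ferroxidase ceruloplasmin that works with ferroportin, gave 27.4 with CML EVs and 34.8 with control EVs, a ratio of -0.35. These last 2 genes were dim. Hamp, which encodes hepcidin, the hormone that removes ferroportin from the cell surface, was not well above background on either array. Heph, the other ferroxidase partner of ferroportin, was singled out after its values were seen because its probes disagreed. The probe brightest with CML EVs gave 22.6 with CML EVs and 12.7 with control EVs and was well above background only with CML EVs. Another probe gave 16.1 with CML EVs and 78.2 with control EVs, well above background on both arrays, a log2 ratio of -2.28. The direction of Heph was therefore not settled, and with that probe it would have the largest ratio in size among the measured genes of the list.

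In the group for iron sensing and ferritin turnover, 7 of 8 genes were measured, 6 higher and 1 lower, with a range from -0.02 to 0.19. Ncoa4, the receptor that delivers ferritin to the lysosome, gave 6623 with CML EVs and 5819 with control EVs, a ratio of 0.19, and Skp1, a subunit of the ubiquitin ligase that degrades IRP2, gave 10280 with CML EVs and 9504 with control EVs, a ratio of 0.11. All 11 genes of mitochondrial iron and iron-sulfur clusters were measured, 7 higher and 4 lower. Abcb10, a mitochondrial transporter needed for heme synthesis, had the largest ratio of them at 0.17, with 787 with CML EVs and 701 with control EVs, followed by the ferredoxin Fdx1 at 0.16, with 3921 with CML EVs and 3511 with control EVs. At the probe brightest with CML EVs, no measured gene of these groups was 25% higher or 20% lower. That leaves out Ftmt, which was well above background only with control EVs, and the dim Aco1 probe at -0.75.

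In the group for heme breakdown and transport, 7 of 8 genes were measured, 4 higher and 3 lower. Abcg2, an exporter that carries porphyrins and marks immature hematopoietic cells, gave 1723 with CML EVs and 2109 with control EVs, a ratio of -0.29, and Hmox1, heme oxygenase 1, which frees iron from heme, gave 4851 with CML EVs and 4359 with control EVs, a ratio of 0.15. All 20 genes of zinc, copper and metallothionein biology outside the members were measured, 14 higher and 6 lower. Mtf1, which encodes the metal-sensing factor that drives Mt1 and Mt2, gave 1783 with CML EVs and 1556 with control EVs, a ratio of 0.20. That was the highest ratio of its 3 measured probes, and the lowest was 0.05. The zinc importer Slc39a10 gave 454 with CML EVs and 534 with control EVs, a ratio of -0.23, and its other probe 0.03. None of the 20 was 25% higher or 20% lower, and the plot of the wider list shows the groups.

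**Figure D4:**
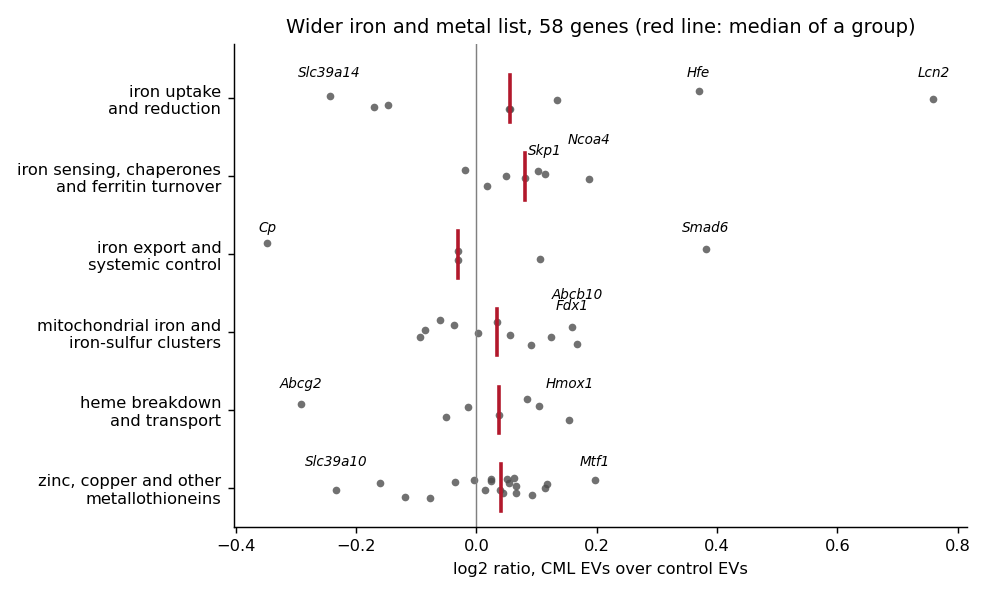
Log2 scale ratio, CML EVs over control EVs, for the 58 measured genes of the wider iron and metal list, 1 point for each gene in 6 groups, with the group median as a red line and vertical scatter for legibility only. Most points lie near 0; Lcn2 at 0.76, Smad6 at 0.38 and Hfe at 0.37 lie to the right and Cp at -0.35 to the left, and Heph, whose probe brightest with CML EVs was above background on 1 array, is not drawn.

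Markers of the cell types the culture could hold were read beside these results, because in bulk RNA more cells of a type and more RNA per cell cannot be told apart. Of 13 measured neutrophil lineage genes, 12 were higher with CML EVs (51.9% of all genes were), with a median log2 ratio of 0.67. By at least 25%, 9 of them were higher, against 5.01% of all genes. The summed signal of the whole list of 14 was 709076 with CML EVs and 545057 with control EVs. Granule genes were bright on both arrays, as in Mpo, which gave 258638 with CML EVs and 213990 with control EVs. This list shares Lcn2 with the uptake group. Of 11 measured monocyte and macrophage genes, 9 were higher (51.9% of all genes were) and 2 lower, with a median of 0.14. Of these 11 genes, 4 were higher by at least 25%, against 5.01% of all genes. The summed signal of the whole list of 16 was 68580 with CML EVs and 50608 with control EVs. Most of that difference came from Ly6c2, which gave 47021 with CML EVs and 30081 with control EVs (a log2 ratio of 0.64). Slc40a1 is known for its high level in macrophages that recycle red cells, and among markers of those, Vcam1 gave 247 with CML EVs and 110 with control EVs (a log2 ratio of 1.17), and Spic gave 88.9 with CML EVs and 61.8 with control EVs (a log2 ratio of 0.52). Cd163, Timd4, C1qa and Cd5l were not well above background on either array, and Marco was so only with control EVs. The 2 measured genes of the list that were lower were C1qb and Ccr2. C1qb gave 33.2 with CML EVs and 37.8 with control EVs, a log2 ratio of -0.19. Ccr2 gave 840 with CML EVs and 981 with control EVs, a ratio of -0.22. The dim gene C1qc had a ratio of 0.14. The general macrophage genes Adgre1, with 1379 with CML EVs and 1356 with control EVs, and Csf1r, with 10782 with CML EVs and 10425 with control EVs, were close to level.

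Of 9 measured erythroid genes, 4 were higher and 5 lower, with a median of -0.0034 and a summed signal of the 12 named genes of 6675 with CML EVs and 6550 with control EVs. The largest ratio among them was that of the beta globin gene Hbb-bt, with 314 with CML EVs and 510 with control EVs, a log2 ratio of -0.70, while the alpha globin genes Hba-a1 at 0.23 and Hba-a2 at 0.19 ran the other way. Alas2 was not well above background on either array, and Slc4a1 was so only with control EVs. Of the 10 measured stem and progenitor genes, 9 were lower and 1 higher, against 51.9% of all genes higher, with a median of -0.14. The summed signal of the whole list of 11 was 35411 with CML EVs and 39026 with control EVs. The genes of the positive markers in the LKS+ label were present: Kit gave 1529 with CML EVs and 1646 with control EVs, and Ly6a, which encodes Sca-1, gave 1985 with CML EVs and 1548 with control EVs. Whether the cells kept that label during culture was not tested. The part of a changed cell composition in the ratios of Slc40a1, Mt1 and Mt2 was not tested.

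The same spots were also processed in other ways. The deposited table, kept outlier spots and the probe brightest with control EVs gave every member the same ratio as reported. Across 9 alternatives the log2 ratio of Slc40a1 ran from 0.59 to 0.76, that of Mt2 from 0.44 to 0.57 and that of Mt1 from 0.33 to 0.54. Slc40a1 reached 1.5-fold under each of them, with its lowest ratio, 0.59, just at that limit, and Mt1 and Mt2 were more than 25% higher under each, at the least with 1.26-fold for Mt1 and 1.36-fold for Mt2. The ratios of Tfrc ran from -0.10 to 0.13 and those of Slc11a2 from -0.02 to 0.24, so neither had a settled direction, as the plot of alternatives shows.

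**Figure D5:**
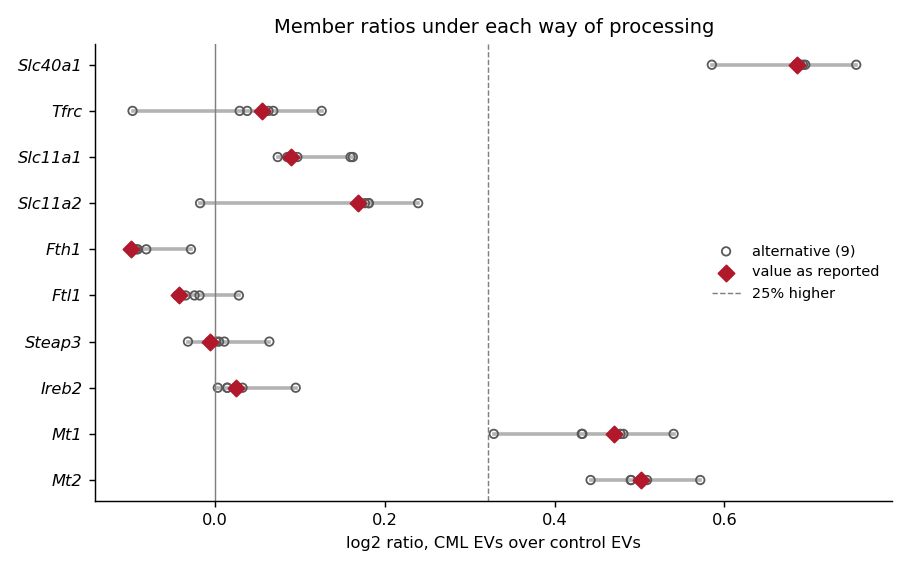
Log2 scale ratio, CML EVs over control EVs, for each member as reported (red diamonds) and under 9 alternatives (open circles, joined by a grey line), with a dashed line at 25% higher. Slc40a1, Mt1 and Mt2 stay right of the dashed line and the other 7 members left of it, while the lines of Tfrc, Slc11a2, Ftl1 and Steap3 cross 0.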

How the data were processed

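RNA of LKS+ cells exposed to spleen-derived CML EVs or control EVs was hybridised to Agilent mouse one-colour arrays, 1 array for each condition. The authors deposited scanner files made with Agilent Feature Extraction 12.0.3.1, whose processed signal is a background-subtracted intensity on a linear scale, and a value table. Each array's processed signals were scaled to a trimmed mean of 2500 after the top and bottom 2% were left out. This gave back the deposited value table (largest relative deviation 4.96e-10), and values were then compared as log2 ratios of CML EVs over control EVs.

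Control spots and spots with outlier flags (88 with CML EVs, 95 with control EVs) were left out, and spots of a probe were averaged. The files give no gene symbols, so probes were named through their RefSeq accession and a GRCm38.p6 gene table, which named 32994 of 56604 probes and left 23610 unnamed. Following the study's methods, a gene took the probe with the highest value with CML EVs, and it counted as measured when both arrays had that probe well above background (13411 genes). With 1 array for each condition no test was run, and the number of arrays limits the precision. Whether the EV preparations or cultures were pooled is not given in the sources used here.

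The members and all gene and marker lists were chosen with earlier results of these data known. The text names all members with every probe, the 2 measured genes with the largest absolute ratio in each group of the wider list, and the closest relatives of the members; marker genes and Heph were picked for the text after their values were seen. The alternatives were 75th percentile, median and quantile scaling, normexp correction (offset 50, limma 3.58.1, R 4.3.3), the deposited table, the mean of probes, the probe brightest with control EVs, outlier spots kept, other filters on dim probes, and, chosen after seeing the data, removal of a loess trend (span 0.3). Scripts used Python 3.11.15 and were tested on simulated ratios.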

Additional observations from a re-analysis of the deposited data

How the results depend on the processing

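All counts of members at least 25% higher or 20% lower and past 1.5-fold were the same under the 11 alternatives run for them (3 higher and 0 lower, 1 higher and 0 lower), and neither Slc40a1, Mt1 nor Mt2 changed direction. Several of these alternatives could not change a member count. The deposited table repeats the reported values, no member spot had an outlier flag, and the probe brightest with control EVs was the same probe. The other filters on dim probes could change nothing, since all 16 member probes were well above background on both arrays. Median scaling, which moved the median of all genes by 0.07, gave log2 ratios of 0.76 for Slc40a1, 0.54 for Mt1 and 0.57 for Mt2, and medians of 0.14 over the members and 0.12 over the wider list. With normexp correction, Slc40a1 was 0.59, Mt2 0.44 and the members' median 0.12. Mt1 was 0.43 with quantile scaling, 0.43 with the loess trend removed and 0.33 with the mean of its probes, and the mean of probes put the members' median at 0.0091. With the probe brightest with control EVs, Heph entered the wider list at -2.28, and 2 of 59 genes in place of 1 of 58 were at least 20% lower. Near-zero members changed sign: Tfrc was -0.10 and Slc11a2 -0.02 with the mean of probes, and Ftl1 was 0.03 and Steap3 0.06 with median scaling. Counting genes well above background on at least 1 array changed the share of all genes higher by 25% to 6.9% and lower by 20% to 7.93%. At 1.5-fold the shares were 3.29% higher and 3.63% lower, and at 2-fold 1.87% higher and 1.85% lower.

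No paired analysis was possible because there was 1 array in each condition, and for the same reason no replicate was left out. No spot was saturated. Signal over background limits the dim probes, among them the dimmer probes of Slc11a2 and Mt1 and the probes of Cp, Smad6, Heph and Ftmt.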

Other observations

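The genes next to the members on the chromosome were read as values, with no gene coordinates used. Between Mt4 and Nup93, the metallothionein cluster holds Mt3, Mt2 and Mt1, and the log2 ratios of CML EVs over control EVs were 0.09 for Mt4, -0.04 for Mt3, 0.50 for Mt2, 0.47 for Mt1 and -0.15 for Nup93, a nuclear pore protein, which gave 5276 with CML EVs and 5858 with control EVs. Bbs2, beyond Mt4, had 0.08, and Herpud1, an endoplasmic reticulum stress gene beyond Nup93, had 0.16, while Slc12a3 between these last genes was not well above background on both arrays. Next to Slc40a1 on one side, Wdr75, a ribosome biogenesis factor, gave 3514 with CML EVs and 3566 with control EVs, a ratio of -0.02, and on the other side the zinc importer Slc39a10, beyond Dnah7b and Dnah7c, which were not named on the array, had -0.23. Col3a1 and Col5a2 were not well above background on both arrays. The measured genes within 3 places of Slc40a1, Mt1 or Mt2, members left out, thus had ratios between -0.23 and 0.16.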
